A study of Chlamydomonas reinhardtii with 45 samples.

Results

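The genes described here are the *Chlamydomonas reinhardtii* genes for the synthesis and breakdown of starch. They were taken from the gene table by symbol (SSS, SBE, STA, ISA, AMY, AMA, AMB, BAM, GBS, DPE, PWD, GWD, PHOA, or PHOB, each followed by a number) or by an annotation line containing "starch" or "amylase". The rule found 34 of 17609 genes, 27 of them by symbol and 29 by annotation line. They comprise 9 starch synthases, 4 branching enzymes, 4 debranching enzymes, 3 dikinases, 6 amylases, 2 phosphorylases, 2 disproportionating enzymes, and 4 other members. The rule used names only, not the measured values, although it was set with earlier results of these data known.

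Starch is the carbohydrate that the alga stores in its chloroplast, both as granules and as a sheath around the pyrenoid. ADP-glucose is polymerized by starch synthases, branch points are set by branching enzymes, and misplaced branches are trimmed by isoamylases, which leaves the ordered chains of amylopectin. Breakdown runs through glucan phosphorylation by dikinases (a role worked out in Arabidopsis), hydrolysis by amylases and debranching enzymes, phosphorolysis by phosphorylases, and the shuffling of short chains by disproportionating enzymes.

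Poly(A) RNA was sequenced from populations of strain CC-5390, a cell-wall-deficient (*cw15*) strain rescued with *ARG7* and labelled as wild type, grown in turbidostat photobioreactors on minimal medium. All populations lived under 12 h of light at 28 °C and 12 h of dark at 18 °C, and were acclimated to a day of low light (LL, 50 PFD), high light (HL, 1000 PFD), or medium light (ML, 200 PFD, the control). Cultures had at least 2 weeks in turbidostat mode, and LL cultures spent 1 week at ML before at least 1 week at LL. Each population was sampled 2 h before dawn (−2), 2, 6, and 10 h into the light (+2, +6, +10), and 2 h into the dark (−10), with 3 replicates in each of the 15 groups, 45 libraries in all. Replicates are described in the methods as experiments of different weeks, and every culture is of this 1 strain.

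Values are FPKM, a fragment count scaled to transcript length and to the size of the library, so that levels can be compared between genes per unit of length. Read counts were not analysed here. From the steps between low FPKM values, the depth of LL replicate 1 at −2 was estimated as 0.167 of that of ML replicate 1 at −2, against 0.583 to 1.35 for the other 44 libraries. A summed level of 15 genes of DNA replication and mitosis peaked at +10 in all populations, at 1006 to 1557 FPKM in LL, 2307 to 2585 FPKM in ML, and 2136 to 2267 FPKM in HL. ML replicate 2 at −2 stood apart by the same sum, at 228 FPKM against 94.5 and 73.8 FPKM in the other replicates of its group, and so did ML replicate 3 at −10, at 298 FPKM against 112 and 102 FPKM. In a bulk culture, a lower level in every cell and fewer cells that express a gene cannot be told apart.

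Of the 17609 genes, 14602 reached 1 FPKM in at least 3 libraries and were tested, and these included all 34 starch genes. Tests were made with limma on log2(FPKM + 1) in 1 model of the 15 groups, and a gene was called changed when the groups differed by more than 1 on the log2 scale and the p-value, adjusted over all genes tested by the Benjamini-Hochberg method, was below 0.01. Fold changes on this scale understate the change of genes near 1 FPKM. The adjusted p-values below all come from this limma model.

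The first question was how the starch genes move over the day. Every starch gene differed between timepoints, 34 of 34 in LL, ML, and HL alike (limma F test), although 92.5% of all genes tested did so in LL, 96.1% in ML, and 94.7% in HL. Counted by the timepoint of the highest mean in ML, 5 genes peaked at −2, 5 at +2, 9 at +6, 7 at +10, and 8 at −10, whereas 12.1%, 25.4%, 18.1%, 22.6%, and 21.7% of all genes tested peaked at those timepoints. The highest mean was a median of 4.43 times the lowest mean in LL, 7.36 times in ML, and 5.68 times in HL, with single genes between 1.58 and 193 times. In 7 of the 34 genes the libraries of the ML peak overlapped those of the next highest timepoint, in 9 genes in LL, and in 6 genes in HL, and for these the order of the top pair is not settled beyond the spread. The peak fell at the same timepoint in all 3 populations for 24 genes. Neither this count nor that of overlapping peaks was made over all genes, so neither can be read as particular to the starch genes.

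**Figure D1:**
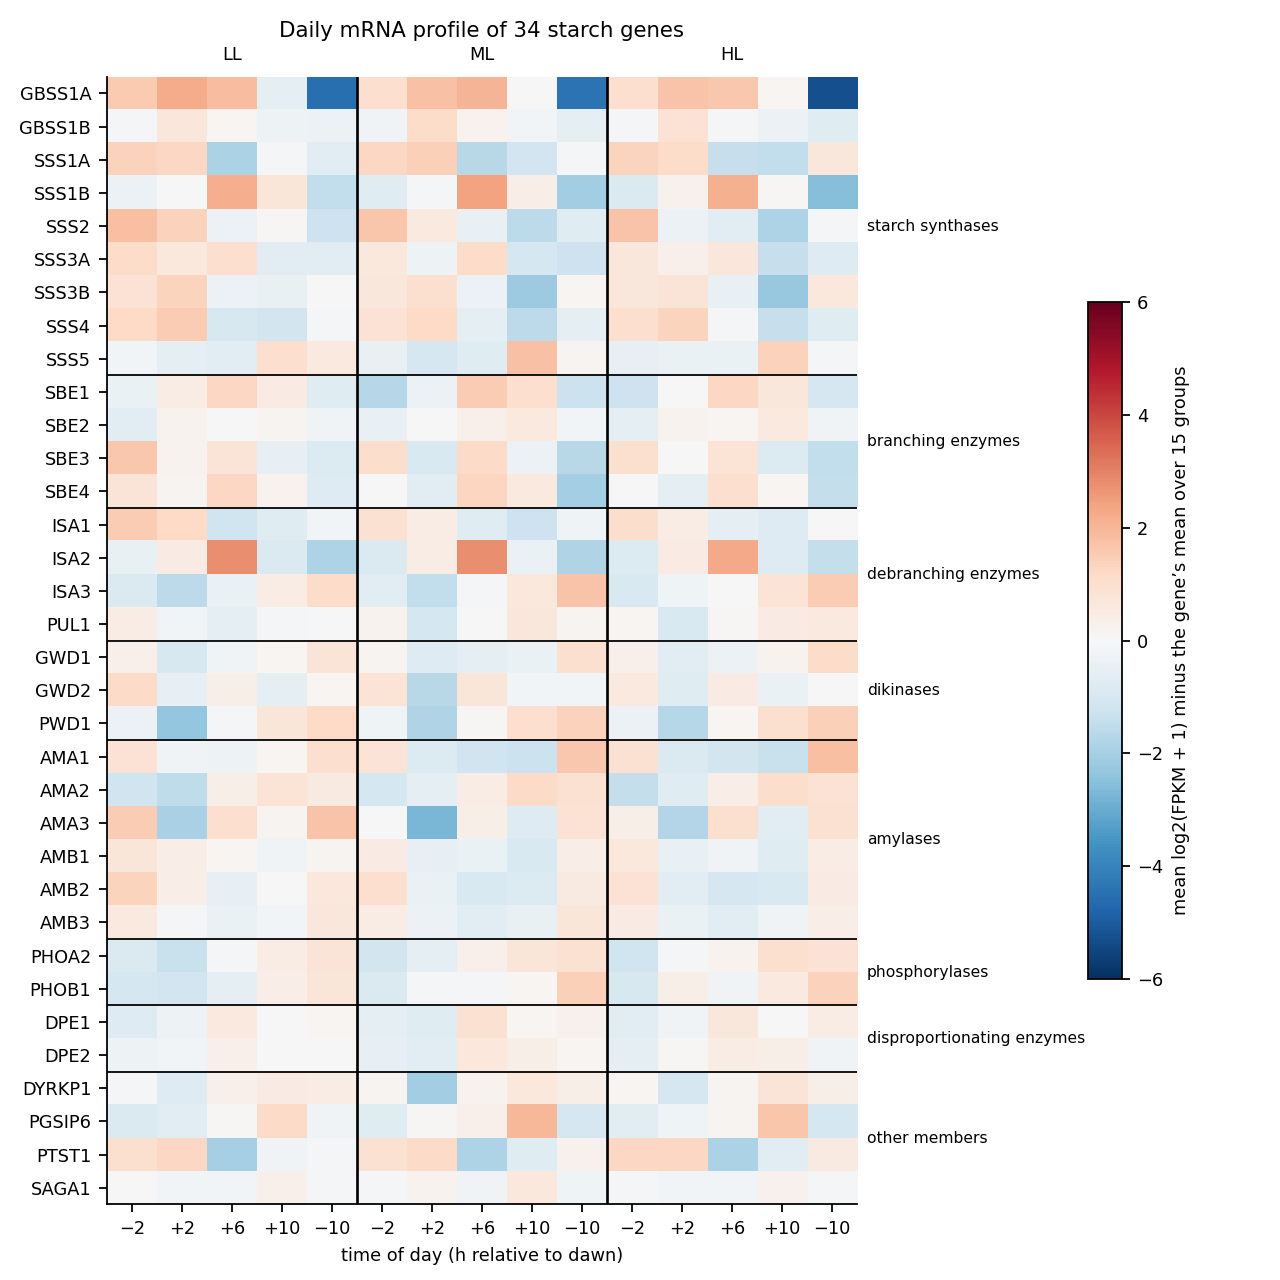
Mean log2(FPKM + 1) of each of the 34 starch genes (rows, by role) in the 15 groups (columns, timepoints within LL, ML, and HL), minus the gene's own mean over the groups, so that red is above and blue below that mean. GBSS1A is the deepest blue at −10, where its ML mean was 4.65 FPKM, and most phosphorylase, dikinase, and amylase genes are red there.

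Between successive ML timepoints, most starch genes crossed the threshold at least once. From −2 to +2, 3 starch genes rose and 9 fell, against 20.2% and 18.7% of all genes tested. From +2 to +6, 14 rose and 6 fell (15.3% and 14.5% of all genes), and the median log2 fold change was 0.27 over the starch genes and 0.01 over all genes. From +6 to +10, 3 rose and 8 fell (17.1% and 11.2%). From +10 to −10, across dusk, 11 rose and 8 fell (17.1% and 26.3%), where the median of all genes itself was −0.13 and that of the starch genes 0.09. The −2 libraries were taken at the start of the sampled day and the −10 libraries at its end. Set against the −10 libraries, the −2 libraries had 9 starch genes higher and 5 lower (11% and 7.27%). Only SAGA1 and SBE2 were called in none of these 5 ML comparisons, so that 32 of the 34 were called at least once, beside 71.3% of all genes.

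A set with mixed roles dipped in the morning. PWD1, GWD2, DYRKP1, AMA3, PUL1, and SBE3 all fell between −2 and +2 and rose again by +6 in ML, although SBE3 had its lowest ML mean at −10. The deepest of them was AMA3, an alpha-amylase, with 10.8, 8.11, and 9.82 FPKM at −2, 0.443, 0.485, and 0.69 FPKM at +2, and 15.3, 14.9, and 8.11 FPKM at +6. Its +2 libraries lay below all others of ML, and the log2 fold change was −2.78 for +2 against −2 and 3.12 for +6 against +2 (adjusted p = 3.24e-16 and 1.97e-17). The synthesis genes SSS1A, SSS2, SSS3B, SSS4, and ISA1 and the granule-targeting gene PTST1 moved the other way in the second step, all falling between +2 and +6.

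The second question was how the light of the day changes these levels. LL against ML gave 12 calls in the 170 tests of 34 genes at 5 timepoints, 10 higher and 2 lower in LL. At −2, 2 genes were higher and 0 lower, against 1.62% and 1.33% of all genes tested. At +2, 3 were higher and 2 lower (4.28% and 3.23% of all genes), and the median log2 fold change was 0.40 over the starch genes and 0.03 over all genes. At +6, 0 were called in either direction (1.97% higher and 1.92% lower among all genes), and the starch genes lay between −0.54 and 0.86. At +10, 4 were higher and 0 lower (3.57% and 1.38%), and at −10, 1 was higher and 0 lower (2.85% and 2%). With no minimum on the fold change, 83 of the 170 tests passed, beside 23.6% of the tests of all genes, so that most of the detected LL differences stayed under the fold minimum. At −2 and −10 the counts of 1 or 2 genes are too small to stand apart from the shares of all genes. The counts at +2 and +10 are small as well, and whether they exceed those shares was not tested.

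HL against ML gave 2 calls in 170 tests, both at +2 and both higher in HL (4.51% of all genes were higher there, and 1.46% lower). No starch gene was called at −2 (0.233% higher and 0.274% lower among all genes), at +6 (1.37% and 0.644%), at +10 (3.24% and 0.438%), or at −10 (0.781% and 0.294%). At any fold change 36 of the 170 tests passed, beside 14.6% for all genes. The count became 6 with a pseudocount of 0.1 in place of 1 and 4 without replicate 1, settings for which the shares of all genes are not given. LL against ML and HL against ML share the ML libraries, so a gene that is high or low in both is partly the same measurement.

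HL against LL, which leaves the ML libraries out, gave 13 calls, 5 higher and 8 lower in HL. There was 1 call at −2 (1.91% of all genes tested in either direction), 5 at +2 (5.15%), 0 at +6 (3.06%), 4 at +10 (5.37%), and 3 at −10 (4.76%). In all 3 pairs of populations together, 16 of the 34 genes were called at least once and 18 were not, where 25.5% of all genes tested were called at least once. A test of whether the difference itself depends on the timepoint passed for 29 of 34 genes in LL against ML, beside 56.5% of all genes, and for 20 of 34 in HL against ML, beside 41.5%. The HL count dropped to 9 without replicate 2, a setting with fewer libraries for which the share of all genes is not given.

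**Figure D2:**
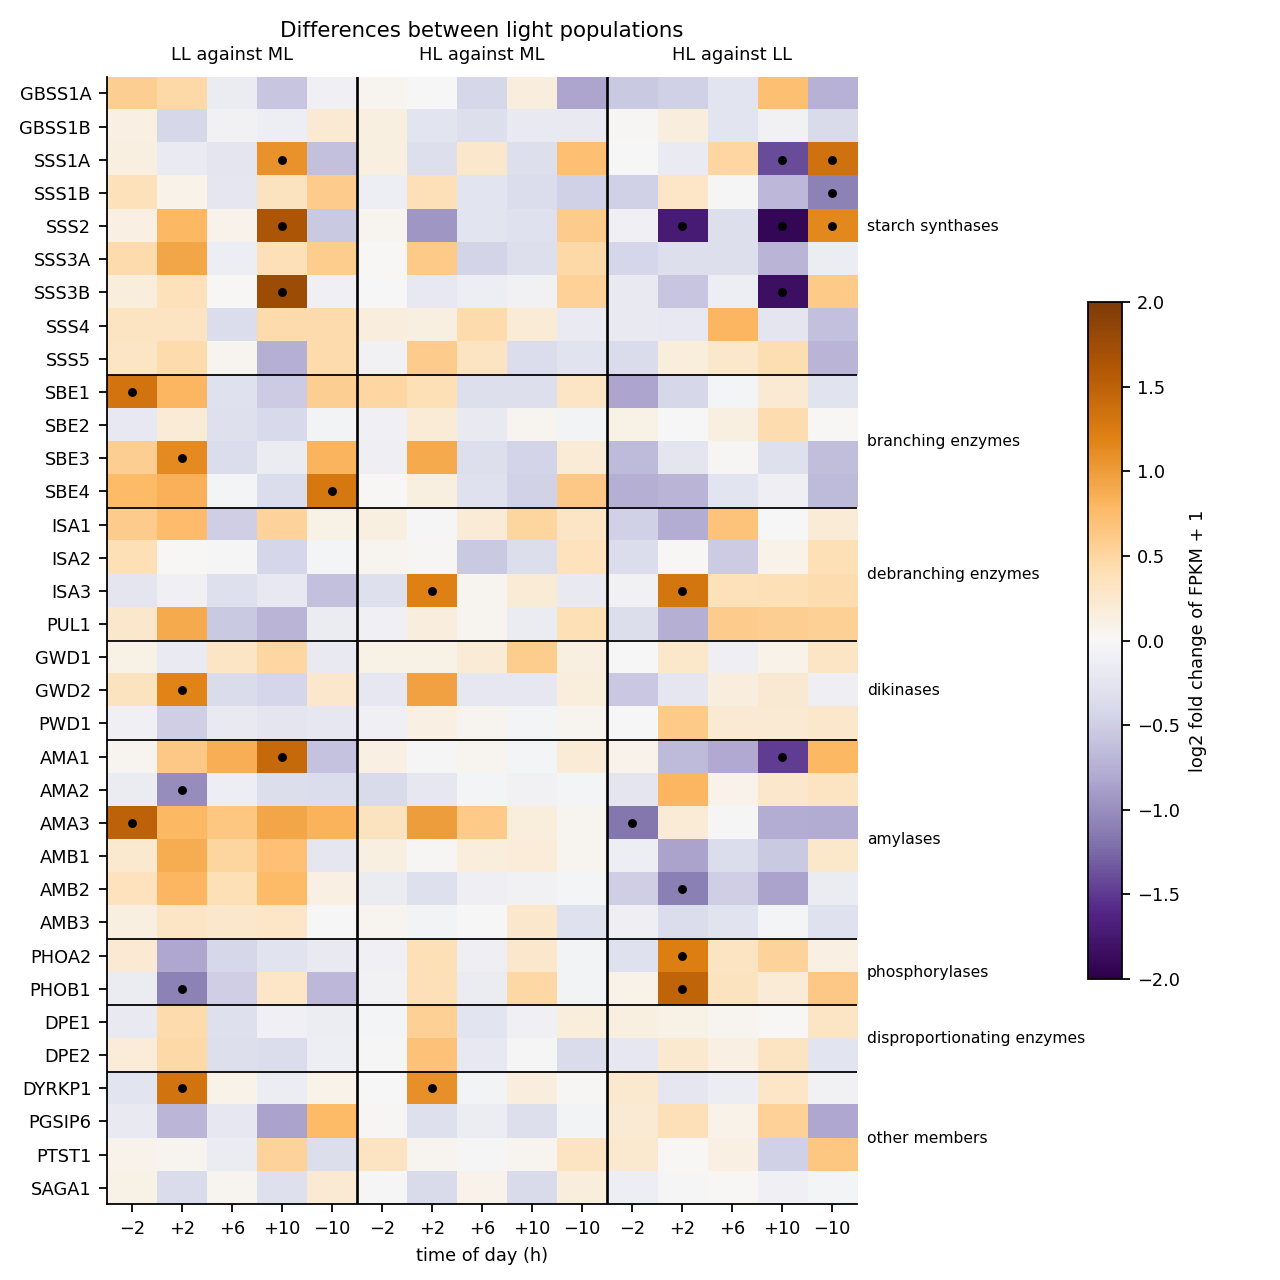
Log2 fold change of FPKM + 1 for each of the 34 starch genes (rows, by role) at each timepoint (columns) in LL against ML, HL against ML, and HL against LL, with a dot on each called difference. The 12 dots of LL against ML fall on 12 different genes and none lies at +6, and the only dots of HL against ML are ISA3 and DYRKP1 at +2.

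The 9 starch synthases held the most abundant of the 34 transcripts. GBSS1A (Cre17.g721500), the granule-bound enzyme that makes amylose, averaged 257 FPKM over the 45 libraries. In LL, its libraries held 398, 323, and 343 FPKM at −2, 573, 554, and 546 at +2, 432, 427, and 466 at +6, 83.1, 70.9, and 82.5 at +10, with 3.66, 4.92, and 4.38 at −10. In HL, they held 241, 229, and 265 FPKM at −2, 393, 393, and 421 at +2, 357, 378, and 373 at +6, 133, 128, and 130.2 at +10, with 2.35, 2.33, and 1.79 at −10. In ML, they held 236, 205, and 283 FPKM at −2, 400.4, 387, and 432 at +2, 469, 469, and 535 at +6, 119, 116, and 118 at +10, with 4.36, 4.37, and 5.23 at −10. The transcript was abundant from −2 to +6 and almost gone at −10 in every library of every population. In ML, −10 against +10 gave log2 fold change −4.39, SE 0.10, adjusted p = 7.47e-29. The −2 libraries against the −10 libraries, from opposite ends of the sampled day, gave log2 fold change 5.41, SE 0.10, adjusted p = 1.83e-31. That was the largest positive log2 fold change of any starch gene in the 5 ML comparisons. LL libraries lay above all ML libraries at −2 and +2, with log2 fold changes of 0.56 and 0.46 that stay under the fold minimum. They lay below all ML libraries at +10 (−0.57). Its largest difference between populations was at −10, with 2.35, 2.33, and 1.79 FPKM in HL, against 4.36, 4.37, and 5.23 FPKM in ML (log2 fold change −0.84, SE 0.10, adjusted p = 5.89e-08). GBSS1A was called in no comparison between populations with the pseudocount of 1, and that one was called at −1.08 with a pseudocount of 0.1. Its paralog GBSS1B (Cre06.g257050) stayed between 0.36 and 4.58 FPKM, with its highest mean at +2 in all 3 populations.

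The soluble synthases, which lengthen the chains of amylopectin, peaked at different hours. SSS1B peaked at +6 in all populations, at 76.9 ± 1.68 FPKM in LL, 90.4 ± 6.22 FPKM in ML, and 75.5 ± 2.80 FPKM in HL (SD, n = 3 each). SSS3B and SSS4 peaked at +2 and SSS2 at −2, whereas SSS5 peaked at +10, although in LL those libraries overlapped the ones at −10. The 2 annotated SSS3 genes ran apart: SSS3A had its highest mean at −2 in LL and at +6 in ML and HL, and SSS3B at +2 throughout. For SSS3A the libraries at −2 and +6 overlapped in LL (means of 99.9 and 92.6 FPKM) and in HL (73.56 and 73.61 FPKM). Its peak is thus not settled in those populations. Close copies of 1 gene may share 50-nt reads, so values of paralogs of this family are less certain than those of single genes.

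At the end of the light phase, 3 soluble synthases were higher in LL. SSS2 (Cre03.g185250) had 29.1, 36.7, and 32.6 FPKM in LL at +10, 6.75, 9.56, and 7.65 FPKM in HL, and 10.4, 11.4, and 8.16 FPKM in ML. SSS3B (Cre13.g579598) had 12.8, 13.0, and 14.8 FPKM in LL, 3.37, 2.67, and 3.19 FPKM in HL, and 3.34, 3.04, and 3.46 FPKM in ML. SSS1A (Cre12.g521700) had 3.43, 3.88, and 3.96 FPKM in LL, 0.775, 1.08, and 0.613 FPKM in HL, and 1.09, 1.49, and 1.26 FPKM in ML. For each of the 3 genes every LL library lay above every ML and HL library, and HL and ML libraries overlapped in SSS2 and SSS3B. LL against ML gave log2 fold change 1.63, SE 0.14, adjusted p = 2.31e-11 for SSS2. For SSS3B it gave log2 fold change 1.76, SE 0.09, adjusted p = 2.51e-16, the largest LL difference of any starch gene. For SSS1A it gave log2 fold change 1.06, SE 0.16, adjusted p = 1.71e-06. HL against LL was called for the same 3 genes at +10, with log2 fold changes of −1.92 for SSS2, −1.84 for SSS3B, and −1.39 for SSS1A. The summed level of the 15 division genes at +10 was also lower in LL (1299 ± 277 FPKM) and HL (2200 ± 65.6 FPKM) than in ML (2410 ± 153 FPKM, SD, n = 3 each), and its part in these differences was not tested.

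The order of the populations was different 4 h later in the dark. SSS2 had 30.6, 31.7, and 24.7 FPKM in HL at −10, against 15.1, 12.4, and 10.3 FPKM in LL, with ML at 23.5, 18.2, and 14.96 FPKM. HL against LL gave log2 fold change 1.15, SE 0.14, adjusted p = 3.25e-08. SSS1A had 6.18, 8.11, and 7.18 FPKM in HL, against 3.33, 1.36, and 2.16 FPKM in LL (log2 fold change 1.35, SE 0.16, adjusted p = 2.39e-08). For both genes the HL libraries lay above all LL libraries, the reverse of +10. SSS1B went the other way at −10, with 1.49, 1.75, and 2.82 FPKM in HL, against 5.03, 6.22, and 4.75 FPKM in LL, but this call ended without replicate 1 or without replicate 2 (log2 fold change −1.09 with all replicates, −0.99 and −0.93 without them). SSS2 also differed at +2, with 28.3, 23.7, and 21.4 FPKM in HL, against 77.8, 80.3, and 91.5 FPKM in LL (log2 fold change −1.73, SE 0.14, adjusted p = 2.78e-12). Its ML libraries lay between them at 49.4, 48.1, and 45.6 FPKM, so that the level at +2 was lower in each brighter population.

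**Figure D3:**
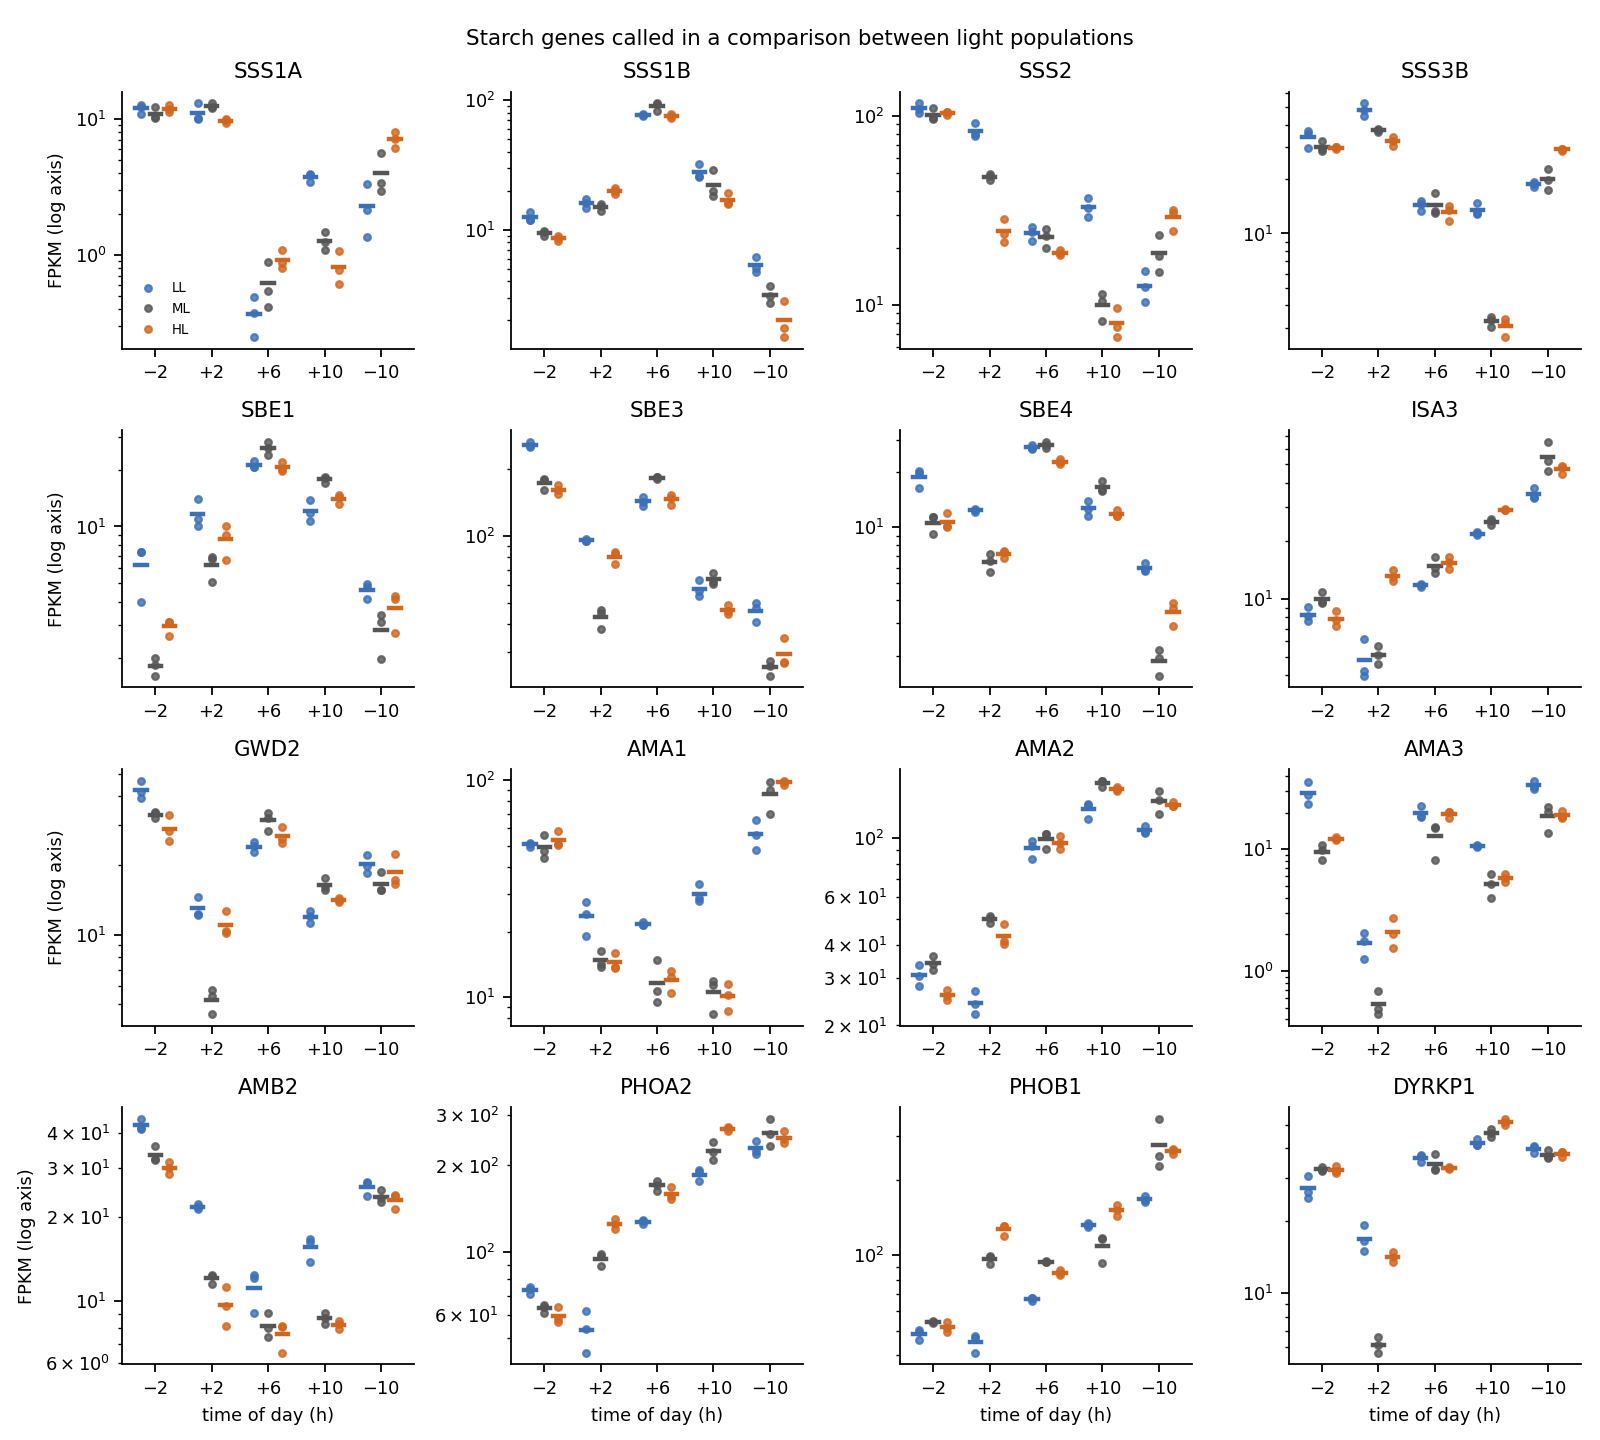
FPKM of the 16 starch genes called in at least 1 comparison between populations, on log axes, at each timepoint; each point is a library and each bar the mean of the 3 libraries of LL (blue), ML (grey), or HL (orange). SSS2, SSS3B, SSS1A, and AMA1 show the LL libraries above all others at +10, and DYRKP1, GWD2, and SBE3 show the ML libraries below all others at +2.

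Among the 4 branching enzymes, SBE3 (Cre10.g444700) was the most abundant, averaging 104 FPKM. SBE3 in LL had 265, 254, and 251 FPKM at −2, 97.4, 94.6, and 94.8 at +2, 143, 137, and 149.9 at +6, 53.3, 56.6, and 63.2 at +10, with 50.0, 41.1, and 47.1 at −10. SBE3 in HL had 154, 169, and 161 FPKM at −2, 83.0, 84.6, and 74.6 at +2, 138, 152, and 148 at +6, 48.7, 44.3, and 46.0 at +10, with 34.6, 27.1, and 26.7 at −10. SBE3 in ML had 181, 179, and 161 FPKM at −2, 44.8, 46.6, and 38.1 at +2, 184, 185, and 179.7 at +6, 62.1, 60.8, and 68.2 at +10, with 27.3, 25.9, and 23.5 at −10. ML showed a trough at +2 between high levels at −2 and +6, a trough that was shallower in LL and HL. LL against ML at +2 gave log2 fold change 1.13, SE 0.09, adjusted p = 6.17e-13, with no overlap between the groups. HL against ML at +2 gave 0.89, just short of the fold minimum, again with every HL library above every ML library. In ML, −10 against +10 gave −1.29 for SBE3, a call that ended when libraries were scaled to a common median (−0.93).

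SBE1 (Cre06.g289850) and SBE4 (Cre08.g373450) were both highest at +6 in all populations. Before dawn, SBE1 had 7.33, 7.31, and 3.99 FPKM in LL, against 1.62, 2.01, and 1.84 FPKM in ML (log2 fold change 1.32, SE 0.16, adjusted p = 1.85e-07). All LL libraries lay above all ML libraries, and the HL libraries lay between them at 3.11, 2.63, and 3.12 FPKM. After dusk, SBE4 had 5.78, 5.82, and 6.41 FPKM in LL, against 2.14, 1.94, and 1.56 FPKM in ML (log2 fold change 1.29, SE 0.10, adjusted p = 6.22e-13). SBE4 was likewise lowest in ML at −10, below every HL library (3.88, 3.61, and 2.89 FPKM). SBE1 was near its daily minimum at −2 and SBE4 at −10, so that both differences sit at low FPKM. SBE2 varied least over the day of the 4, from 11.1 FPKM at −2 to 23.5 FPKM at +10 in ML, and was not called anywhere.

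The debranching enzymes had different peak times, with ISA1 highest at −2, ISA2 at +6, and ISA3 at −10 in all populations. ISA1 (Cre03.g155001), the isoamylase without which *Chlamydomonas* makes phytoglycogen in place of granular starch, averaged 42.2 FPKM. ISA1 in LL had 105, 106, and 98.8 FPKM at −2, 78.5, 82.4, and 85.4 at +2, 12.9, 13.6, and 17.5 at +6, 19.8, 19.3, and 22.5 at +10, with 34.3, 29.6, and 29.5 at −10. ISA1 in HL had 68.8, 74.4, and 79.1 FPKM at −2, 49.3, 45.9, and 47.4 at +2, 23.3, 24.0, and 24.5 at +6, 19.2, 21.8, and 20.1 at +10, with 39.4, 32.3, and 36.3 at −10. ISA1 in ML had 66.6, 68.6, and 66.4 FPKM at −2, 50.6, 46.7, and 47.8 at +2, 20.7, 22.0, and 19.6 at +6, 14.8, 16.6, and 11.1 at +10, with 31.1, 27.2, and 28.8 at −10. Its level was highest before dawn in each population, and every LL library was above every ML library at −2 and +2, by log2 fold changes of 0.61 and 0.75 that were not called. In ML, ISA1 at −10 against +10 gave 1.00, at the fold minimum, and was not called without replicate 1 (0.99) or without replicate 3 (0.85). ISA2 (Cre17.g698850), which in plants acts as the partner of ISA1, rose and fell around midday, with 4.30, 4.81, and 4.78 FPKM at +2 in ML, 28.0, 28.6, and 25.8 FPKM at +6, and 1.80, 2.06, and 2.35 FPKM at +10. ISA2 was below 1 FPKM in all 9 libraries at −10.

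ISA3 (Cre03.g207713), whose Arabidopsis counterpart works in starch breakdown, had its highest mean at −10 in all populations. At +2 it had 14.1, 13.0, and 12.3 FPKM in HL, against 5.09, 5.66, and 4.61 FPKM in ML (log2 fold change 1.21, SE 0.11, adjusted p = 5.49e-11). The same HL libraries stood against 6.21, 4.22, and 3.99 FPKM in LL (log2 fold change 1.30, SE 0.11, adjusted p = 8.46e-12). HL was above all 6 other libraries of this timepoint, while LL and ML overlapped. The pullulanase-type gene PUL1 was not called between populations, except in LL against ML at +2 with a pseudocount of 0.1 (log2 fold change 1.01, against 0.90 with 1). Its LL value at −2 was 31.7 FPKM in replicate 1, the library of lowest depth, against 11.1 and 11.9 FPKM in the other replicates.

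Of the dikinases, GWD1 (Cre07.g319300) was the most abundant at 61.2 FPKM on average. GWD1 in LL had 68.2, 68.7, and 67.7 FPKM at −2, 25.4, 28.5, and 31.6 at +2, 47.6, 47.1, and 47.9 at +6, 58.7, 64.6, and 57.9 at +10, with 103, 92.4, and 94.4 at −10. GWD1 in HL had 69.3, 69.4, and 65.7 FPKM at −2, 38.2, 35.7, and 29.8 at +2, 45.6, 44.3, and 42.7 at +6, 65.5, 64.7, and 62.7 at +10, with 129, 117, and 114 at −10. GWD1 in ML had 67.1, 60.6, and 62.6 FPKM at −2, 32.7, 34.1, and 29.6 at +2, 41.9, 41.8, and 32.1 at +6, 43.5, 48.5, and 36.5 at +10, with 104, 100.2, and 124 at −10. It was lowest in the morning and highest after dusk, with log2 fold change 1.34 for −10 against +10 in ML (adjusted p = 1.63e-14), and was not called between populations. PWD1, which acts on glucan already phosphorylated by the first dikinase, followed the same course, with means of 1.88 FPKM at +2 and 25.8 FPKM at −10 in ML. GWD2 (Cre07.g332300) had its highest mean before dawn instead. Only in LL did those libraries stand clear of +6. They overlapped in ML (means of 33.2 and 31.3 FPKM) and in HL (28.8 and 26.8 FPKM). At +2, GWD2 had 14.5, 12.4, and 12.2 FPKM in LL, against 5.73, 5.40, and 4.53 FPKM in ML (log2 fold change 1.18, SE 0.11, adjusted p = 4.33e-11). HL libraries were also all above ML, at 12.7, 10.1, and 10.4 FPKM, with a log2 fold change of 0.96 that missed the fold minimum.

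**Figure D4:**
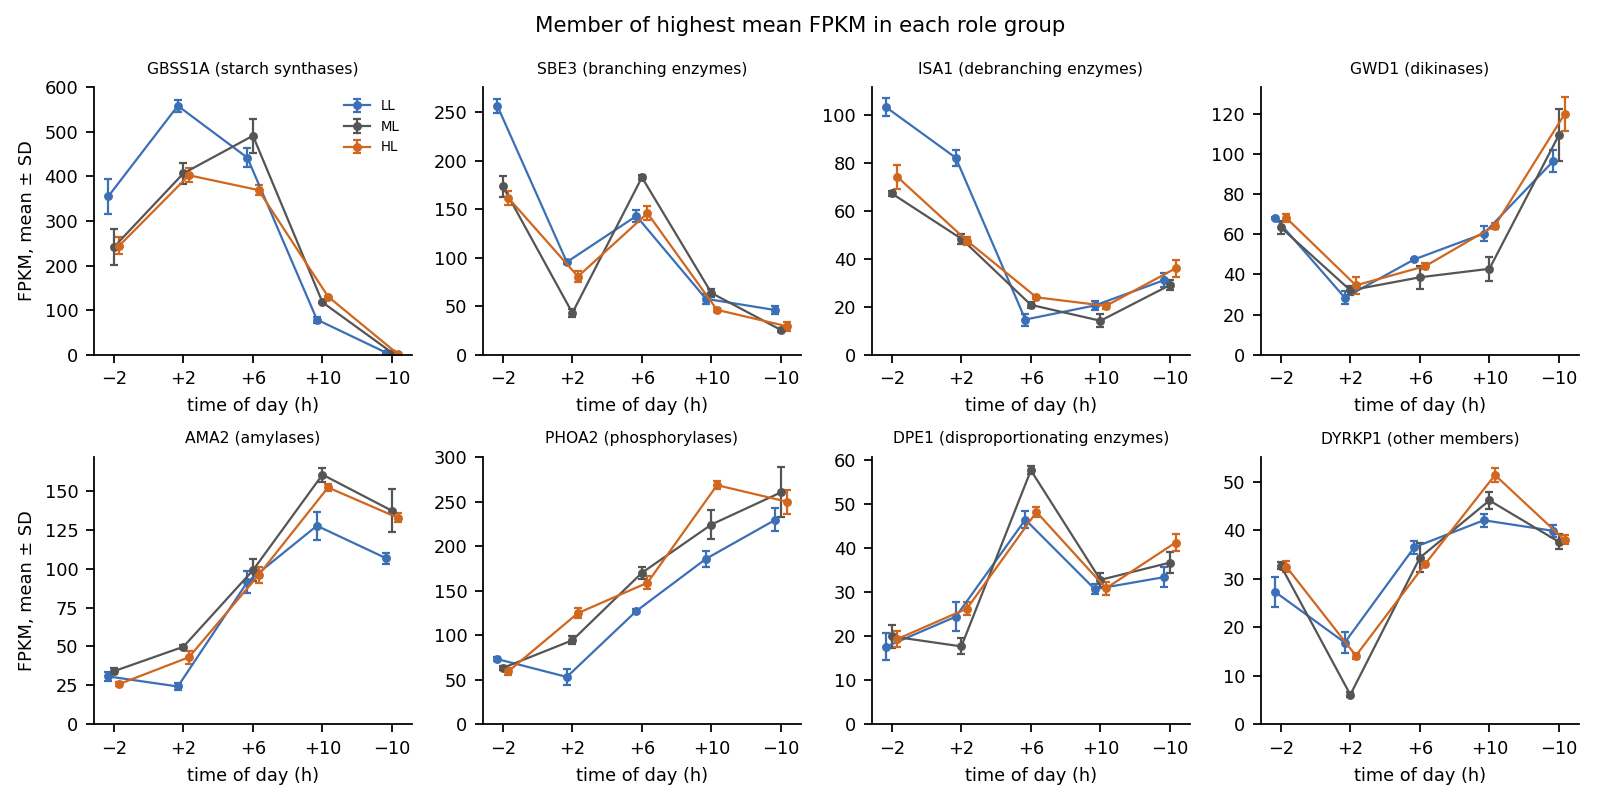
FPKM (mean ± SD, n = 3) over the 5 timepoints in LL (blue), ML (grey), and HL (orange) for the gene of highest mean FPKM in each of the 8 role groups, on linear axes from 0. GBSS1A declines to near 0 at −10, GWD1 and PHOA2 are highest or next to highest there, and SBE3 and DYRKP1 show a dip at +2 that is deepest in ML.

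Of the 6 amylases, 5 had their highest ML mean in the dark, at −10 or −2, and AMA2 had it at +10. AMA2 (Cre08.g362450), the most abundant, averaged 87.4 FPKM. AMA2 in LL had 33.6, 28.2, and 30.6 FPKM at −2, 24.1, 26.8, and 22.1 at +2, 97.5, 93.1, and 83.6 at +6, 133, 132, and 117 at +10, with 111, 104, and 105 at −10. AMA2 in HL had 27.1, 24.9, and 25.8 FPKM at −2, 41.4, 47.8, and 40.1 at +2, 90.7, 95.4, and 101 at +6, 149.7, 152, and 154 at +10, with 136, 131, and 131 at −10. AMA2 in ML had 32.2, 33.8, and 36.3 FPKM at −2, 48.3, 50.1, and 51.1 at +2, 103, 103, and 90.9 at +6, 163, 155, and 163 at +10, with 123, 139, and 150.0 at −10. AMA2 was highest at +10 in all populations, and in LL, unlike in ML and HL, the mean at +2 was below that at −2. LL against ML at +2 gave log2 fold change −1.01, SE 0.08, adjusted p = 1.61e-12, with no overlap, although the log2 fold change was −0.93 and no call was made without replicate 3.

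AMA1 (Cre08.g385500) had its highest mean at −10 in every population, although in LL those libraries overlapped the ones at −2. Its LL libraries lay above all ML and HL libraries at +2, +6, and +10. At +6 AMA1 gave a log2 fold change of 0.86 for LL against ML, which was called only without replicate 1 (1.05). At +10 it had 27.9, 33.4, and 28.8 FPKM in LL, 11.5, 10.3, and 8.68 FPKM in HL, and 11.4, 11.9, and 8.38 FPKM in ML. LL against ML gave log2 fold change 1.44, SE 0.14, adjusted p = 8.63e-10, and HL against LL gave log2 fold change −1.48, SE 0.14, adjusted p = 3.81e-10. At −10 the order turned: LL had 65.8, 55.9, and 47.9 FPKM, below all libraries of HL (99.5, 98.4, and 95.2 FPKM) and of ML (98.4, 90.2, and 69.9 FPKM), by −0.60 on the log2 scale against ML, which was not called. Its LL difference depended on the timepoint (adjusted p = 2.25e-09). These are the same timepoints at which SSS2 and SSS1A turned.

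AMA3 (Cre08.g384750) had a higher mean in LL than in ML at every timepoint. At −2 it had 35.6, 28.0, and 23.7 FPKM in LL, against 10.8, 8.11, and 9.82 FPKM in ML (log2 fold change 1.50, SE 0.18, adjusted p = 9.58e-08). HL against LL was called there as well, with 12.2, 12.0, and 12.5 FPKM in HL (log2 fold change −1.17, SE 0.18, adjusted p = 9.17e-06). At +2, +6, +10, and −10 the LL libraries lay above all ML libraries too, with log2 fold changes of 0.80, 0.65, 0.94, and 0.84 that were not called. For AMA3 the dependence of the LL difference on the timepoint was not significant (adjusted p = 0.0294). LL replicate 1 at −2, the library of lowest depth, was the highest of its group for AMA3, and the call was kept without it.

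The beta-amylases AMB1, AMB2, and AMB3, which release maltose, were in ML highest at −10 and −2 and lowest at +6 or +10. AMB1 averaged 74.0 ± 2.82 FPKM at −2 and 27.0 ± 2.27 FPKM at +10 in ML (SD, n = 3 each). AMB2 was the only one called between populations, at +2, with 11.2, 9.62, and 8.13 FPKM in HL, against 21.3, 21.7, and 22.3 FPKM in LL (log2 fold change −1.11, SE 0.10, adjusted p = 4.23e-11). HL lay below all LL libraries, but the call was lost without replicate 3 (log2 fold change −0.98). AMB1 and AMB2 in LL exceeded every ML library from −2 through +10, with log2 fold changes at +2 of 0.88 and 0.80, both under the fold minimum.

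The phosphorylases, which release glucose 1-phosphate from chain ends in a reversible reaction, were lowest around dawn. PHOA2 (Cre07.g336950) averaged 156 FPKM. PHOA2 in LL had 75.1, 74.2, and 70.9 FPKM at −2, 61.8, 53.7, and 44.3 at +2, 129, 125, and 128 at +6, 192, 189, and 176 at +10, with 244, 219.8, and 226 at −10. PHOA2 in HL had 63.9, 56.6, and 58.3 FPKM at −2, 119.5, 130.4, and 125 at +2, 153, 157, and 168 at +6, 269.5, 264, and 273 at +10, with 265, 239, and 247 at −10. PHOA2 in ML had 64.1, 60.8, and 65.1 FPKM at −2, 96.2, 97.8, and 89.4 at +2, 163, 177, and 171 at +6, 242, 223, and 209 at +10, with 235, 257, and 290.5 at −10. The level climbed through the light phase to +10 or −10, and at +2 the LL libraries lay below all ML libraries and the HL libraries above them. HL against LL at +2 gave log2 fold change 1.23, SE 0.08, adjusted p = 2.32e-14. Against ML the log2 fold changes were −0.83 in LL and 0.40 in HL, and neither was called.

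PHOB1 (Cre12.g552200) encodes the other phosphorylase, the loss of which lowers starch content in *Chlamydomonas*. At +2 it had 47.6, 46.7, and 40.8 FPKM in LL, 119.7, 131, and 131 FPKM in HL, and 92.7, 98.5, and 99.7 FPKM in ML. The 3 populations did not overlap, in the order LL, ML, HL from low to high. LL against ML gave log2 fold change −1.09, SE 0.09, adjusted p = 6.34e-12, and HL against LL gave log2 fold change 1.48, SE 0.09, adjusted p = 3.74e-15. HL against ML was 0.39 and was not called. After dusk PHOB1 reached 173, 164, and 166 FPKM in LL, 267, 253, and 262 FPKM in HL, and 228, 248, and 350.0 FPKM in ML, where ML replicate 3, one of the libraries with raised division genes, was the highest. So at +2 the order of both phosphorylases by light was opposite to that of SSS2.

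Both disproportionating enzymes rose in ML between +2 and +6. DPE1 (Cre03.g181500) averaged 32.2 FPKM. DPE1 in LL had 14.1, 20.1, and 18.7 FPKM at −2, 25.9, 26.7, and 20.7 at +2, 48.6, 44.6, and 46.1 at +6, 29.4, 31.6, and 31.0 at +10, with 35.8, 31.1, and 33.3 at −10. DPE1 in HL had 21.0, 17.6, and 19.5 FPKM at −2, 26.7, 27.5, and 24.5 at +2, 46.9, 49.1, and 48.6 at +6, 30.6, 32.4, and 29.6 at +10, with 42.5, 42.2, and 39.1 at −10. DPE1 in ML had 20.6, 17.0, and 22.3 FPKM at −2, 19.3, 18.1, and 15.7 at +2, 58.5, 57.8, and 56.6 at +6, 34.6, 31.9, and 31.8 at +10, with 38.6, 37.4, and 34.1 at −10. The peak was at +6 in all populations, and ML rose by 1.65 on the log2 scale at +6 against +2 (adjusted p = 1.23e-16). DPE2 also peaked at +6 in all populations and rose by 1.25 in the same ML step. At +6 every ML library of DPE1 exceeded every LL and HL library, by under 2-fold, and neither gene was called between populations.

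Among the other members, DYRKP1 (Cre07.g337300), a protein kinase annotated as involved in starch degradation, was the most abundant at 32.6 FPKM. DYRKP1 in LL had 24.8, 26.4, and 30.6 FPKM at −2, 19.2, 16.4, and 14.97 at +2, 37.0, 35.0, and 37.5 at +6, 43.5, 41.4, and 41.2 at +10, with 40.8, 38.4, and 40.5 at −10. DYRKP1 in HL had 33.8, 31.5, and 32.1 FPKM at −2, 14.2, 14.8, and 13.5 at +2, 33.3, 32.7, and 33.3 at +6, 51.4, 49.9, and 52.8 at +10, with 38.5, 38.6, and 36.9 at −10. DYRKP1 in ML had 32.0, 33.4, and 32.6 FPKM at −2, 6.58, 6.08, and 5.66 at +2, 37.8, 32.4, and 32.9 at +6, 46.1, 48.0, and 44.3 at +10, with 36.8, 36.6, and 39.4 at −10. All populations dipped at +2, and ML dipped most, below every LL and HL library. LL against ML at +2 gave log2 fold change 1.32, SE 0.07, adjusted p = 2.19e-16, and HL against ML gave log2 fold change 1.09, SE 0.07, adjusted p = 6.41e-14. Both use the same 3 ML libraries, and HL against LL, which does not, was −0.23 and was not called. The HL call ended when libraries were scaled to a common median (log2 fold change 0.96). SBE3 and GWD2 had the same arrangement at +2, with ML lowest and LL and HL both above it.

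The remaining 3 members were not called between populations, other than PGSIP6 at −10 with a pseudocount of 0.1. PTST1, whose Arabidopsis counterpart brings the granule-bound synthase to starch, was low at +6 in every library, between 1.03 and 2.01 FPKM, and averaged 21.0 ± 1.47 FPKM at +2 in ML (SD, n = 3). PGSIP6, annotated as a glycogenin-like starch initiation protein, peaked at +10 in all populations, at 12.0 ± 2.13 FPKM in LL, 22.4 ± 0.925 FPKM in ML, and 17.7 ± 0.592 FPKM in HL. SAGA1, a pyrenoid gene named after abnormal starch granules, stayed between 0.72 and 3.06 FPKM.

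The neighbouring genes of the pathway, 15 by symbol or annotation, are not part of the list above. Of these, 14 were tested, since AGP3 stayed below the minimum, and 2 (GPM1 and GPM3) are phosphoglycerate mutases by their annotation. Over the ML day all 14 were called at least once (71.3% of all genes), with 15 higher and 18 lower calls in the 5 comparisons, beside 16.1% and 15.6% of the tests of all genes. LL against ML gave 8 calls among them over the 5 timepoints, all higher in LL, in 4 genes, beside 2.86% higher and 1.97% lower among the tests of all genes. LCI9, a protein annotated as induced by low CO2, accounted for 4 of the calls. At +10 LCI9 had 47.7, 57.3, and 72.9 FPKM in LL, against 8.28, 7.74, and 11.9 FPKM in ML (log2 fold change 2.55, SE 0.19, adjusted p = 7.25e-13). PGM1, a phosphoglucomutase, was called at +10 and −10, with log2 fold changes of 1.16 and 1.43. PGI1 (1.10), a phosphoglucose isomerase, and LESV1 (1.11), annotated as like early starvation 1, were called at +2. LESV1 went the other way later, with log2 fold changes of −0.72 at +6 and −0.94 at −10 that were under the fold minimum (adjusted p = 5.87e-07 and 1.63e-09). HL against LL gave 5 calls in 3 genes, 1 higher and 4 lower in HL (2.06% and 1.99% of the tests of all genes). LESV1 was higher in HL at −10 (1.47), and LCI9 and PGM1 were lower at +10 (−1.95 and −1.72) and at −10 (−1.15 and −1.11). HL against ML gave 1 call in this list (2.03% higher and 0.622% lower among all genes), PGM2 at +2 (1.37), which lay at 2.53, 3.48, and 1.80 FPKM in HL, against 0.37, 0.521, and 0.232 FPKM in ML.

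The ADP-glucose pyrophosphorylase genes, which encode the enzyme that supplies ADP-glucose to the starch synthases, were not called between populations. The small subunit AGP4 averaged 265 ± 6.53 FPKM in LL at +2, 184 ± 5.21 FPKM in HL, and 155 ± 8.79 FPKM in ML (SD, n = 3 each). LL against ML was 0.77 (adjusted p = 5.94e-10), a difference beyond the spread but under the fold minimum. At +10, AGP1, a large subunit, averaged 72.6 ± 2.59 FPKM in LL, against 44.0 ± 4.57 FPKM in ML, with a log2 fold change of 0.71 (adjusted p = 5.81e-08) that was likewise not called. At +6 AGP1 was lower in LL (−0.31, adjusted p = 0.0064). The other large subunit tested, AGP2, had the opposite direction at +10, with 12.6 ± 1.36 FPKM in LL, against 19.6 ± 1.56 FPKM in ML (−0.60, adjusted p = 4.98e-05), and was higher in LL at −2 (0.71, adjusted p = 1.49e-05).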

How the data were processed

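Per the sample labels and the study's methods, the authors aligned 50-nt strand-specific poly(A) reads to the CC-4532 (v6.1) genome with STAR (2.4.0j) and computed FPKM with Cuffdiff (2.0.2). The deposited FPKM table used here has a row for each gene and a column for each library. A second deposited table of group means was not used. The tests of the authors used DESeq2 on read counts, which were not analysed here, and so no read depth or counting interval is given.

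Populations, timepoints, and replicate numbers came from the sample labels. Genes with at least 1 FPKM in at least 3 libraries were fitted as log2(FPKM + 1) with limma (3.58.1, R 4.3.3; trend in the prior variance) as 15 group means, with no block. The script was tested on simulated data. Calls needed a difference of more than 1 on the log2 scale, in either direction, with the p-value below 0.01 after Benjamini-Hochberg adjustment within a comparison. P-values rest on 1 variance per gene, pooled over the replicates of all 15 groups and moderated toward a trend over all genes. They do not measure the spread of the 3 against 3 libraries compared, and a noisier or shallower group is tested with the same variance. An exact permutation test of 3 against 3 cannot go below 0.1. Relative depth was estimated from the ratios of low FPKM values in 846 genes. No gene positions are given.

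Every library's values are printed for the members called in LL or HL against ML, at that timepoint, and for the member of highest mean FPKM in each role group. The starch genes and all lists were chosen with earlier results of these data known. For same-numbered libraries, the correlation of deviations from group means was taken. Over 45 pairs between populations it ran from −0.06 to 0.33 (median 0.04, above 0.1 in 12). Over 45 pairs of successive timepoints it ran from −0.30 to 0.23 (median 0.06, above 0.1 in 14). Pairs of different numbers were not summarised beside them, so these values cannot decide whether same-numbered libraries share a culture or a week. The study's methods describe independent cultures in different weeks, each followed over an experiment. The F tests without a block treat all libraries as independent and make no allowance for repeated samples of a culture. Alternatives were a pseudocount of 0.1, no filter, median scaling, a replicate block, each replicate number left out, LL replicate 1 at −2 left out, and no fold minimum. Leaving out ML replicate 2 at −2 or ML replicate 3 at −10 was added after seeing the data. No 2 libraries held identical values.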

Additional observations from a re-analysis of the deposited data

Results flagged for a closer look

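A test of the difference itself showed that the LL difference from ML was not the same at all timepoints for 29 of the 34 starch genes, beside 56.5% of all genes tested, and the HL difference for 20 of 34, beside 41.5% (limma F test, Benjamini-Hochberg adjusted). Among the genes called in LL against ML, the adjusted p of this test was 2.25e-09 for AMA1, 9.45e-08 for AMA2, 3.6e-14 for DYRKP1, 1.69e-10 for GWD2, and 6.04e-10 for PHOB1. It was 3.06e-08 for SBE1, 1.83e-12 for SBE3, 4.09e-12 for SBE4, 1.15e-06 for SSS1A, 2.03e-10 for SSS2, and 1.74e-13 for SSS3B. For the genes called in HL against ML it was 7.08e-11 for DYRKP1 and 2.92e-09 for ISA3. AMA3 is the called gene for which it did not pass in LL (adjusted p = 0.0294). These genes were picked by calls on the same libraries, so their values in this test are not independent of that choice.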

How the results depend on the processing

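Of the 27 calls between populations, 23 were kept under all 10 alternatives other than the fold minimum, 4 were lost under at least 1, and 0 reversed. With a replicate block (the replicate number as a fixed term between populations, the culture as one between timepoints) the counts were 12 for LL against ML, 2 for HL against ML, 13 for HL against LL, and 76 over the ML day, the same as without it, and the block ended no call named here. Without a fold change minimum they were 83, 36, 73, and 142, beside 23.6%, 14.6%, 21.1%, and 63.1% of the tests of all genes. With a pseudocount of 0.1 they were 16, 6, 16, and 83, and the calls gained include GBSS1A, ISA2, PUL1, and PGSIP6, which were otherwise not called between populations. HL against ML gave 3 to 4 calls when 1 replicate number was left out. LL against ML gave 12 to 13 calls on leaving out 1 replicate number, HL against LL 12 to 13, and the ML day 76 to 79. On leaving out 1 replicate number, genes whose LL difference depended on the timepoint numbered 20 to 26. Those whose HL difference did so numbered 9 to 18, and the cause was not tested. Shares of all genes under these alternatives are not given, so changes in the counts cannot be read as particular to the starch genes. Leaving out LL replicate 1 at −2, ML replicate 2 at −2, or ML replicate 3 at −10 left the 3 counts between populations at 12, 2, and 13. The 3 libraries of a group limit the precision, and FPKM near 1 is compressed by the pseudocount.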

Other observations

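Summed over the 34 starch genes, FPKM at −2 was 1695 ± 71.4 in LL, 1339.6 ± 10.4 in HL, and 1336 ± 44.2 in ML (SD, n = 3 each, no test). The LL libraries lay above all others there and again at +2, where the sums were 1476 ± 16.9 in LL, 1297 ± 11.4 in HL, and 1167 ± 6.98 in ML. At +6 the order turned, with 1538 ± 34.7 in LL and 1482 ± 25.7 in HL, both below ML at 1727 ± 9.55. These sums are dominated by the most abundant genes, GBSS1A above all. FPKM summed over all genes also differed between groups. At +6 it was 575262 to 595257 in HL and 684879 to 735034 in ML. At +2 it was 712562 to 759944 in HL and 853046 to 858535 in LL. LL replicate 1 at −2, the library of lowest depth, had the highest starch sum (1777) and the highest total (679041) of its group. The order of the starch sums as shares of these totals was not computed.

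The synthase and phosphorylase sums changed order over the ML day. In ML the 9 starch synthases summed to 735 ± 38.9 FPKM at +6 and 85.9 ± 11.6 FPKM at −10, whereas the 2 phosphorylases summed to 265 ± 7.04 FPKM at +6 and 536 ± 92.9 FPKM at −10. GBSS1A alone averaged 491 FPKM at +6 and 4.65 FPKM at −10 in ML, so the change of order rests largely on this gene. The 4 branching enzymes at +2 summed to 138 ± 3.85 FPKM in LL, 115 ± 5.81 FPKM in HL, and 71.7 ± 6.62 FPKM in ML, with no overlap between the 3 populations, and SBE3 made up most of each sum. These sums are given as values only, and the total over all genes differed between groups here as well.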
